A study of Rattus norvegicus and Mus musculus with 18 samples.

Results

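The genes described here are 40 interferon-stimulated genes and interferon regulators in the healing skin wound of the mouse. They were taken by symbol from a table of 49548 mouse genes listed by Ensembl identifier, and all 40 were found. Expression was compared between 3 libraries of mouse wound epidermis and 3 of mouse wound dermis, the tissue beneath it. Tissue came from skin wounds of adult mice 1 day after the scab detached, a time at which, by the study's description, mice regenerate hair follicles. The labels give no strain, genotype, age or sex for these groups and do not say whether libraries came from separate animals, so the spread between replicates may be partly technical. The series also holds 12 rat libraries, whose values were not used here because the rat identifiers were not paired with gene symbols. RNA from whole tissue was made into libraries by SMART-seq2, which copies polyadenylated RNA into full-length cDNA, and values are TPM, a gene's share of the transcripts in a library after correction for its length.

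Type I interferons are secreted proteins that cells release when sensors in the cytoplasm or in endosomes meet foreign or misplaced nucleic acid. They bind a receptor made of Ifnar1 and Ifnar2, which activates the kinases Jak1 and Tyk2 and through them a complex that holds Stat2 and Irf9. This complex binds a DNA element called the interferon-stimulated response element and raises the transcription of many antiviral genes, among them the sensors and factors that keep the response going. In skin, keratinocytes, fibroblasts, endothelial cells and leukocytes can all respond to interferon.

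Both tissues carried the markers of their labels. All 9 keratinocyte markers (Krt5, Krt14, Krt15, Trp63, Krt1, Krt10, Lor, Ivl and Flg2) were higher in every epidermis library than in any dermis library, and all 6 fibroblast markers and all 5 endothelial markers were lower. The dermis libraries were not alike in keratinocyte transcripts. The summed TPM of 4 basal keratinocyte markers was 1826, 3315 and 234 in dermis replicates 1, 2 and 3, and that of 5 markers of differentiated keratinocytes 415, 10209 and 218. Replicate 2 was thus high for both lists, and replicate 1 was above replicate 3 for the basal list. The counts of members and of the other pathway lists are also given without replicate 2.

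The element through which the interferon-activated complex acts has a core that was searched here on either strand as GAAA, 2 bases of any kind and GAAA again. Promoter windows were taken from RefSeq for the rat genome build GRCr8, from 250 bases before to 50 bases after the annotated start of a gene, and were matched to the members by symbol, which does not prove that rat and mouse genes of the same name are direct counterparts. Mouse promoters were not analysed here. Of the 40 members 26 had a rat window, and 16 of these (61.5%) held the core, against 3.92% of all 33469 rat windows of the same length. With a further C at the 3′ end of the core, 13 of the 26 member windows (50%) and 0.881% of all windows held it. The windows of the 4 most abundant mouse members that held the core are shown 5′ to 3′ on the strand of the gene, with the core in capitals. They lie at chr1:205482299-205482598 (minus strand) for Ifitm2, chr1:205541709-205542008 (minus strand) for Ifitm3, chr1:241527076-241527375 (plus strand) for Ifit3 and chr10:57415685-57415984 (plus strand) for Xaf1.
Ifitm2: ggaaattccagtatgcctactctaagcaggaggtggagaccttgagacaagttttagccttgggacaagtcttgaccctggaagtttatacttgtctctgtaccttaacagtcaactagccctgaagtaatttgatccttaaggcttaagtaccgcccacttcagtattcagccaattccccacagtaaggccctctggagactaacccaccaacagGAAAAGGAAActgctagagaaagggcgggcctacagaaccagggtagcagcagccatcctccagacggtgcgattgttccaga
Ifitm3: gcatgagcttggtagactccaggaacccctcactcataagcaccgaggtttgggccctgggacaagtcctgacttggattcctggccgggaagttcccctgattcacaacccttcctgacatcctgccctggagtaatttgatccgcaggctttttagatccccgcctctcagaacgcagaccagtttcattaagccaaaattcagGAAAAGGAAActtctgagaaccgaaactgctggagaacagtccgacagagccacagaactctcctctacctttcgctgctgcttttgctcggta
Ifit3: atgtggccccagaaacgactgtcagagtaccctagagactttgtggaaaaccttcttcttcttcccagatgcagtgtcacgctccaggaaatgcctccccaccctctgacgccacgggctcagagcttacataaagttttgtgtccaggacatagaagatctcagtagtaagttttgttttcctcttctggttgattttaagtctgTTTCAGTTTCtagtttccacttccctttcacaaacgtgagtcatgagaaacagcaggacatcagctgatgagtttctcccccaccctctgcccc
Xaf1: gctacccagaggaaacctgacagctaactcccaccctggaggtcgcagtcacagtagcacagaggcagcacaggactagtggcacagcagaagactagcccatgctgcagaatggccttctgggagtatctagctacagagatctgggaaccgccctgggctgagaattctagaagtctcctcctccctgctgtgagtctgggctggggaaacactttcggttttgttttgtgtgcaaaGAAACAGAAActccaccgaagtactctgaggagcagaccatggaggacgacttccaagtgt

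In Ifitm2 and Ifitm3 the core read GAAAAGGAAA and began 33 and 44 bases before the start. In Ifit3 it lay on the other strand, 44 to 35 bases before the start, and in Xaf1 it read GAAACAGAAA and ended 2 bases before the start. Bst2, Ifi44 and Oas1a held 2 matches each, which overlapped in Bst2 and Oas1a. The 10 windows without a match belonged to Ifnar1, Ifnar2, Irf1, Irf3, Irf5, Irf8, Irf9, Stat2, Mx1 and Ifi35, so that they included both receptor chains and all but 1 of the transcription factors with a window. A match is a run of letters and not a shown binding site, and its absence says only that these letters are not in this window.

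**Figure D1:**
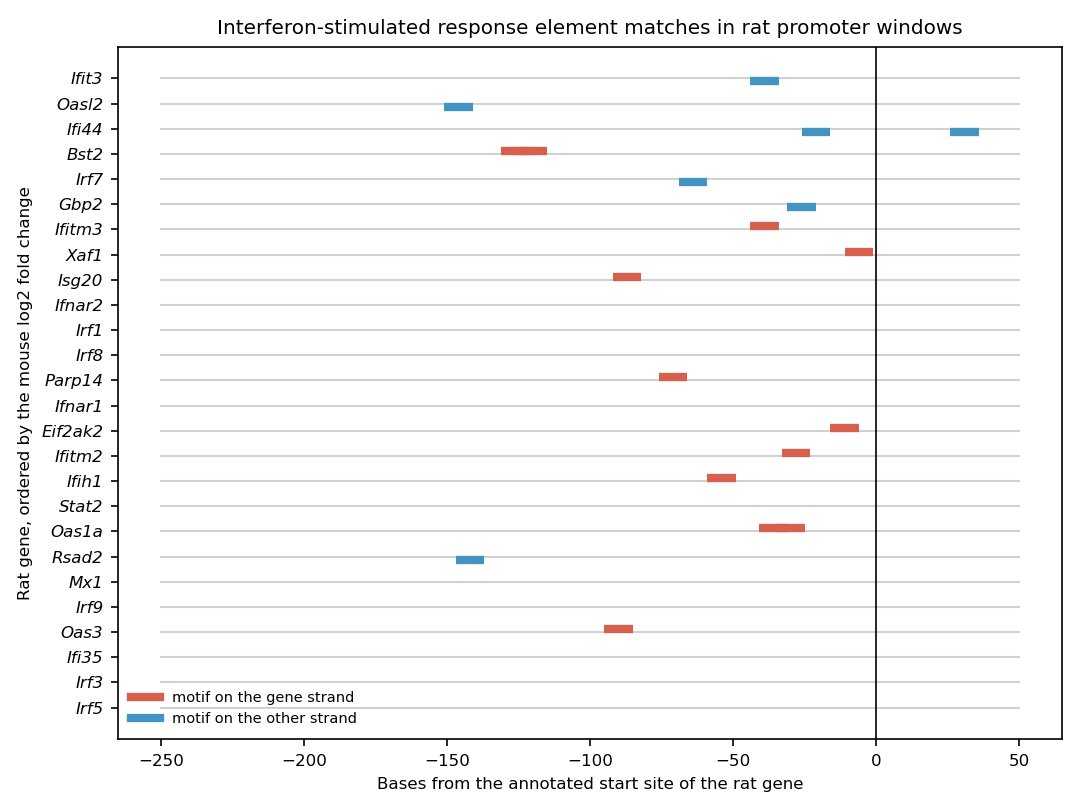
Position of matches to the response element core in rat promoter windows (x axis: bases from the annotated start, from 250 before to 50 after) for 26 rat genes that share a symbol with a member, ordered from top to bottom by the mouse log2 fold change. Of the 26 windows 16 hold a match, on the gene strand (red, drawn above the line) or on the other strand (blue, drawn below it), and all but 1 of the matches lie before the start.

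Nearly all of the interferon genes were lower in wound epidermis than in wound dermis. Of 40 members 37 fell, 0 rose and 3 did not pass the test (limma, Benjamini-Hochberg adjusted p under 0.05 over 15982 genes), where 39.3% of all tested genes fell and 17.0% rose (56.3% in either direction). The 37 were also those in which every epidermis library lay below every dermis library, which held for 45.3% of all tested genes, and all 37 fell by at least 1 on the log2 scale, against 30.7% of all genes. The level of these 37 in epidermis ranged from 0.933% of the dermis mean for Ifit3 to 42.7% for Irf9. The median log2 fold change of the 40 was -3.04, against -0.42 over all tested genes, and no member was higher even at an unadjusted p under 0.05. Without dermis replicate 2, 34 of 37 tested members fell, where 27.1% of all genes tested did. Without replicate 1 or 3 it was 33 of 37, where 24.7% and 23.5% of all genes fell. By role, the counts without replicate 2 lost only Ifit2, Mx1 and Rsad2, which then failed the filter.

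All 40 passed the filter of at least 1 TPM in at least 3 libraries. In epidermis 25 reached 1 TPM in all 3 libraries, and the other 15 would not have passed on their epidermis values, among them Ifit2, Mx1 and Rsad2, which reached it in no epidermis library. Such genes could pass only because they were high in dermis. With no filter the count was again 37 of 40, where 21.8% of all genes tested fell. That count still includes those 15, so it does not speak to how they passed the filter. In whole tissue, fewer cells that express a gene and less RNA per cell cannot be told apart. The difference in the median of all genes moves with scaling. It was -0.42 for TPM as deposited and -0.03 with median-of-ratios scaling, and quantile normalization put it at 0.08. Relative to it, the median of the members was -2.61, -2.59 and -2.59.

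**Figure D2:**
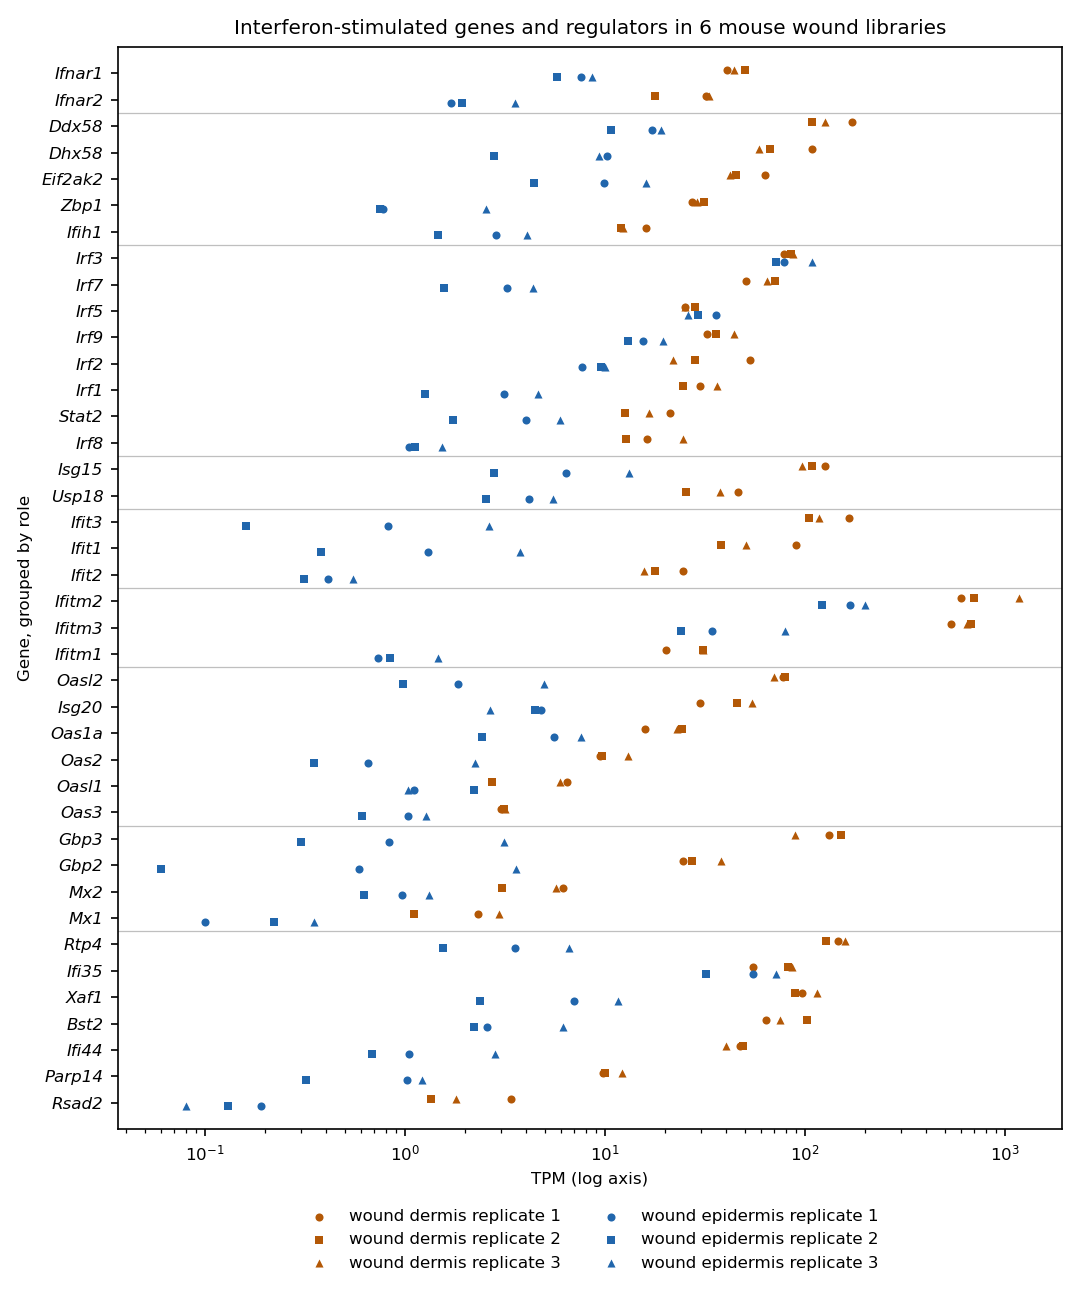
TPM (log axis) of the 40 members in 3 wound dermis libraries (brown) and 3 wound epidermis libraries (blue), with genes grouped by role and 1 symbol shape per replicate. Dermis and epidermis overlap for Irf3, Irf5 and Ifi35 and for no other member.

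Both chains of the type I interferon receptor were lower in epidermis. Ifnar1 stood at 40.8, 50.1 and 43.8 TPM in the dermis libraries and at 7.59, 5.77 and 8.56 TPM in the epidermis libraries. The groups lay well apart, and Ifnar1 fell by 2.48 ± 0.21 on the log2 scale (SE, limma adjusted p = 0.00010). Ifnar2 stood at 31.9, 17.7 and 33.1 TPM in dermis and at 1.70, 1.93 and 3.53 TPM in epidermis. Its lowest dermis library, replicate 2, was still above all epidermis libraries (log2 fold change -3.07 ± 0.32, adjusted p = 0.00028). A predicted gene, Gm21970, overlaps Ifnar2 on the same strand. Gm21970 stood at 0, 3.43 and 6.22 TPM in dermis and at 1.67, 0 and 1.88 TPM in epidermis, so the TPM of Ifnar2 is uncertain. Both receptor genes lie on chromosome 16 (mm10), Ifnar2 from 91372783 to 91405589 and Ifnar1 from 91485238 to 91507441.

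All 5 sensors of nucleic acid fell, with log2 fold changes from -3.76 to -1.98. Ddx58, which encodes RIG-I, a sensor of viral RNA ends, stood at 171, 108 and 126 TPM in dermis and at 17.1, 10.8 and 19.0 TPM in epidermis. It was the most abundant sensor in both tissues and did not overlap between them (log2 fold change -3.04 ± 0.28, adjusted p = 0.00015). Dhx58, which encodes LGP2, a relative of RIG-I that tunes RNA sensing, stood at 109, 66.8 and 58.9 TPM in dermis and at 10.2, 2.77 and 9.36 TPM in epidermis. Epidermis replicate 2 was the lowest of the 6 libraries, and the log2 fold change was -3.33 ± 0.46 (adjusted p = 0.00097). Eif2ak2, which encodes the kinase PKR that stops translation on double-stranded RNA, stood at 63.1, 45.1 and 42.3 TPM in dermis and at 9.91, 4.38 and 16.1 TPM in epidermis (log2 fold change -2.33 ± 0.42, adjusted p = 0.0031). Zbp1, a sensor of Z-form nucleic acid that can start necroptosis, had a log2 fold change of -3.76, and Ifih1, which encodes the long double-stranded RNA sensor MDA5, one of -1.98.

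Of 8 transcription factors 6 fell and 2, Irf3 and Irf5, did not pass the test. Irf3, which is present before infection and starts interferon production when phosphorylated, stood at 78.4, 85.2 and 87.3 TPM in dermis and at 78.3, 71.7 and 108.8 TPM in epidermis. The groups overlapped (log2 fold change 0.02, 95% interval -0.49 to 0.53, adjusted p = 0.94). Irf5, a factor of Toll-like receptor signalling, stood at 25.2, 28.2 and 25.1 TPM in dermis and at 35.6, 29.2 and 25.9 TPM in epidermis. Those groups overlapped too (log2 fold change 0.19, 95% interval -0.27 to 0.66, adjusted p = 0.43). After median-of-ratios scaling, which shifts all genes upward in epidermis, Irf3 was called higher at 0.49 and Irf5 at 0.65 (adjusted p = 0.033 and 0.031). The ends of Irf3 and Irf5 overlap the genes Bcl2l12 and Tnpo3 on the opposite strand, and SMART-seq2 does not mark strand, so reads of each pair cannot be told apart there.

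Irf7, the interferon-induced factor that amplifies interferon production, stood at 50.8, 70.4 and 64.7 TPM in dermis and at 3.24, 1.57 and 4.34 TPM in epidermis. It lay far apart between the tissues (log2 fold change -4.01 ± 0.31, adjusted p = 6.3e-05) with a 95% interval of -4.73 to -3.29. Among the other factors, Irf1, which acts downstream of interferon gamma, had a log2 fold change of -3.05, Irf8, a factor of the myeloid lineage, -3.03 and Irf2, a competitor of Irf1, -1.72. Irf8 shares its whole locus with a same-strand gene model, Gm20388, so its TPM is uncertain. Stat2 and Irf9, partners in the complex that receptor signalling activates, had log2 fold changes of -1.93 and -1.18, and Irf9 stood at 42.7% of its dermis level in epidermis.

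The ubiquitin-like protein Isg15, which is joined to newly made proteins during the response, stood at 126, 108 and 96.9 TPM in dermis and at 6.39, 2.79 and 13.2 TPM in epidermis. Epidermis replicate 3 was highest and replicate 2 lowest, and all were far below dermis (log2 fold change -3.91 ± 0.45, adjusted p = 0.00043). Usp18, the protease that removes Isg15 and damps receptor signalling, stood at 46.4, 25.2 and 37.6 TPM in dermis and at 4.16, 2.52 and 5.48 TPM in epidermis (log2 fold change -2.89 ± 0.32, adjusted p = 0.00034). The epidermis libraries took the same order for both genes.

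The Ifit genes, whose proteins bind foreign RNA ends and block their translation, all fell, to 0.933% to 3.05% of their dermis level. Ifit3 stood at 165, 105 and 117 TPM in dermis and at 0.82, 0.16 and 2.63 TPM in epidermis, and it had the most negative log2 fold change of the 40, -6.02 ± 0.42 (adjusted p = 4.2e-05). Ifit1 stood at 90.0, 38.0 and 50.7 TPM in dermis and at 1.30, 0.38 and 3.77 TPM in epidermis (log2 fold change -4.52 ± 0.50, adjusted p = 0.00036). Dermis replicate 1 was highest for both. Ifit2 stood at 24.5, 17.8 and 15.7 TPM in dermis and at 0.41, 0.31 and 0.55 TPM in epidermis, below 1 TPM in every epidermis library (log2 fold change -3.82 ± 0.23, adjusted p = 2.3e-05). The 3 genes lie together on chromosome 19 (mm10), Ifit2 from 34550694, Ifit3 from 34583531 and Ifit1 from 34640871. Ifit3 has a close copy, Ifit3b, between which reads may be split. Ifit3b stood at 35.6, 20.7 and 24.7 TPM in dermis and at 0.44, 0 and 0.42 TPM in epidermis, so the copy was low in epidermis as well.

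Ifitm proteins sit in membranes and hinder the fusion of enveloped viruses. Ifitm2 was the most abundant member in both tissues, at 598, 697 and 1174 TPM in dermis and at 167, 122 and 199 TPM in epidermis. No other member averaged 100 TPM or more in epidermis, and it fell too (log2 fold change -2.30 ± 0.32, adjusted p = 0.0010). Ifitm3 stood at 536, 673 and 643 TPM in dermis and at 34.2, 23.98 and 79.6 TPM in epidermis (log2 fold change -3.89 ± 0.42, adjusted p = 0.00030). Ifitm1 stood at 20.1, 30.95 and 30.8 TPM in dermis and at 0.73, 0.84 and 1.46 TPM in epidermis (log2 fold change -3.81 ± 0.26, adjusted p = 3.7e-05). These genes are close relatives on chromosome 7, from 140954837 to 141010770 (mm10), and reads may be split between them.

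The 2′-5′ oligoadenylate synthetases make the messenger that activates RNase L, and the Oasl proteins are their relatives. Oasl2 stood at 77.2, 79.1 and 69.5 TPM in dermis and at 1.84, 0.97 and 4.94 TPM in epidermis (log2 fold change -4.57 ± 0.39, adjusted p = 0.00011). Oas1a stood at 15.8, 24.1 and 22.7 TPM in dermis and at 5.57, 2.43 and 7.59 TPM in epidermis (log2 fold change -1.90 ± 0.37, adjusted p = 0.0042). Mouse Oas1 genes are a family of near copies. The neighbour Oas1g moved with Oas1a, with 12.0 TPM as its dermis mean and 3.73 TPM as its epidermis mean. Other copies did not, since Oas1e and Oas1f rose and Oas1b and Oas1c did not pass (given in the closing section). Oas2 and Oas3 had log2 fold changes of -2.58 and -1.07. Oasl1 stood at 6.47, 2.73 and 5.96 TPM in dermis and at 1.10, 2.21 and 1.03 TPM in epidermis, the narrowest gap among the called members (log2 fold change -1.28 ± 0.33, adjusted p = 0.014). Its call was lost without epidermis replicate 1 (adjusted p = 0.051), dermis replicate 1 (0.061) or dermis replicate 3 (0.059), and after median-of-ratios scaling (0.066). Isg20, an exonuclease that degrades single-stranded RNA, stood at 29.9, 45.6 and 54.2 TPM in dermis and at 4.76, 4.44 and 2.65 TPM in epidermis (log2 fold change -3.15 ± 0.30, adjusted p = 0.00016). It was 1 of 4 members that were lowest in epidermis replicate 3.

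Gbp and Mx proteins are large GTPases that attack pathogens within the cell. Gbp3 stood at 132, 151 and 88.5 TPM in dermis and at 0.83, 0.30 and 3.11 TPM in epidermis (log2 fold change -5.83 ± 0.44, adjusted p = 5.9e-05). Gbp2 stood at 24.5, 27.1 and 38.0 TPM in dermis and at 0.59, 0.06 and 3.56 TPM in epidermis, with the widest relative spread between epidermis libraries of all members (log2 fold change -3.94 ± 0.52, adjusted p = 0.00079). Both lie on chromosome 3, Gbp3 from 142560026 to 142573209 and Gbp2 from 142620602 to 142638008 (mm10). Mx2 stood at 6.12, 3.03 and 5.67 TPM in dermis and at 0.96, 0.62 and 1.31 TPM in epidermis (log2 fold change -1.57 ± 0.28, adjusted p = 0.0029), and the annotation lists it as a polymorphic pseudogene. Mx1 stood between 1.10 and 2.93 TPM in dermis and between 0.10 and 0.35 TPM in epidermis. On the log2(TPM + 1) scale the added 1 shrinks the change of such low genes, so its size depends on the pseudocount. With a pseudocount of 0.1 the log2 fold change of Mx1 was -2.75 in place of -1.31, and that of Rsad2 -3.21 in place of -1.44. After quantile normalization neither was called, nor were Oas3 and Oasl1 (adjusted p = 0.29 for Mx1, 0.13 for Rsad2, 0.21 for Oas3 and 0.29 for Oasl1).

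Of the other 7 effectors 6 fell. Rtp4, a chaperone of membrane receptors that is induced by interferon, stood at 146, 127 and 158 TPM in dermis and at 3.52, 1.54 and 6.62 TPM in epidermis (log2 fold change -5.02 ± 0.39, adjusted p = 6.6e-05). Xaf1, a proapoptotic partner of the inhibitor XIAP, stood at 96.6, 89.0 and 114 TPM in dermis and at 6.99, 2.36 and 11.6 TPM in epidermis (log2 fold change -3.85 ± 0.46, adjusted p = 0.00048). Bst2, which tethers budding virus to the cell surface, had a log2 fold change of -4.20, Ifi44 -4.29, Parp14, an ADP-ribosyltransferase, -2.68 and Rsad2, the antiviral enzyme viperin, -1.44. Ifi35 was the exception. It stood at 54.8, 82.0 and 86.1 TPM in dermis and at 55.0, 31.9 and 71.8 TPM in epidermis, so the groups overlapped (log2 fold change -0.53, 95% interval -1.33 to 0.27, adjusted p = 0.22).

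**Figure D3:**
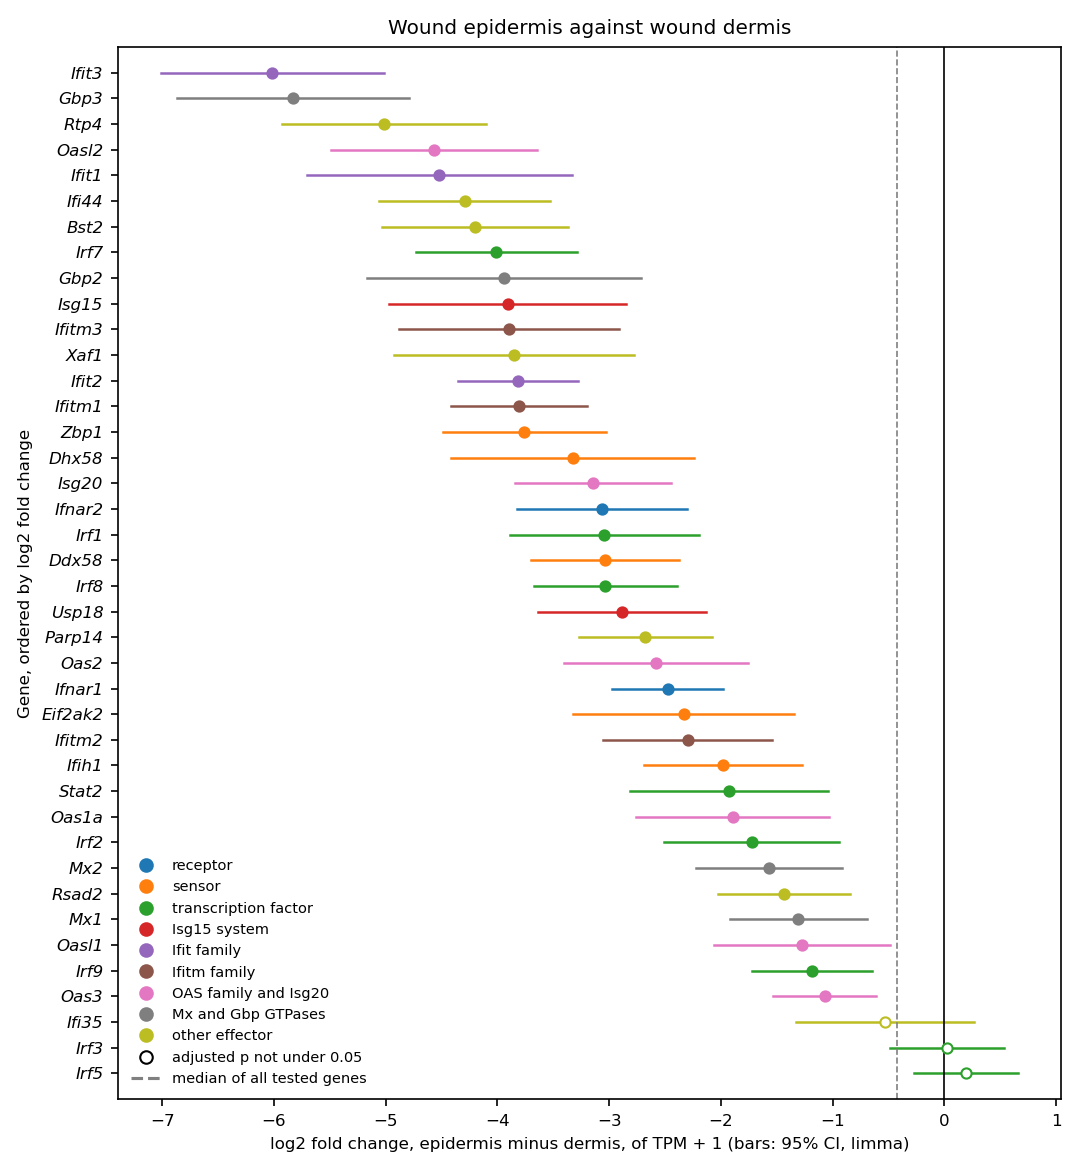
Log2 fold change of TPM + 1, epidermis minus dermis, with 95% confidence interval (limma) for the 40 members, coloured by role. Filled points passed the test. Ifit3 at -6.02 is the lowest, and the open points of Ifi35, Irf3 and Irf5 are the 3 that did not pass, while the dashed line marks the median of all tested genes at -0.42.

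In level, 35 members had a mean of at least 10 TPM in dermis and 8 had one in epidermis. In dermis Ifitm2 (823 ± 308 TPM, SD, n = 3) and Ifitm3 (617 ± 72.3 TPM) stood at the top and did not separate beyond their spread, followed by Rtp4 (143 ± 15.7 TPM), Ddx58 (135 ± 32.4 TPM), Ifit3 (129 ± 31.9 TPM) and Gbp3 (124 ± 31.9 TPM), which also overlapped. In epidermis Ifitm2 (163 ± 38.9 TPM) led, followed by Irf3 (86.3 ± 19.8 TPM), Ifi35 (52.9 ± 20.0 TPM), Ifitm3 (45.9 ± 29.6 TPM) and Irf5 (30.2 ± 4.96 TPM). The last 3 overlapped in their spread. Ifit2, Mx1, Mx2, Oas3, Parp14 and Rsad2 had means below 1 TPM in epidermis and none did in dermis.

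The members also differed between libraries of 1 tissue. In epidermis, replicate 3 held the highest value for 35 of the 40 and replicate 2 the lowest for 31, and the members' summed TPM was 501, 361 and 678 in replicates 1, 2 and 3. In dermis no library stood apart in this way, since the highest value fell to replicates 1, 2 and 3 for 14, 11 and 15 members. The median coefficient of variation of a member was 22.9% in dermis and 48.3% in epidermis (n = 3 each). Several lists of cell type markers also differed between epidermis libraries. In replicates 1, 2 and 3 the summed TPM of 6 fibroblast markers was 36.4, 8.42 and 87.6, that of 4 basal keratinocyte markers 9641, 6667 and 17560, that of 6 dendritic and Langerhans cell markers 1018, 928 and 2104, and that of 5 T and NK cell markers 19.4, 17.3 and 42.3. The sums of these lists were highest in replicate 3 and lowest in replicate 2, as that of the members was. Single genes of these lists did not all take that order. Krt15 was highest in replicate 1 and Siglech in replicate 2, and Cd74, Flt3, Nkg7 and Lum were lowest in replicate 1. The 5 markers of differentiated keratinocytes, at 42306, 60545 and 24887, and the 5 endothelial markers, at 3.35, 9.55 and 3.10, were highest in replicate 2. The sum of 10 macrophage and monocyte markers, at 69.5, 82.8 and 78.1, was mostly Cd68, at 44.4, 68.5 and 52.9 TPM. C1qa, C1qb, Csf1r and Adgre1 were highest in replicate 3 and lowest in replicate 2. The rest of this list did not take that order. Lyz2, Cd14 and Fcgr1 were highest in replicate 1, Ptprc was lowest in replicate 1 and Ly6c2 lowest in replicate 3. The part of these cells in the spread of the members was not tested.

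**Figure D4:**
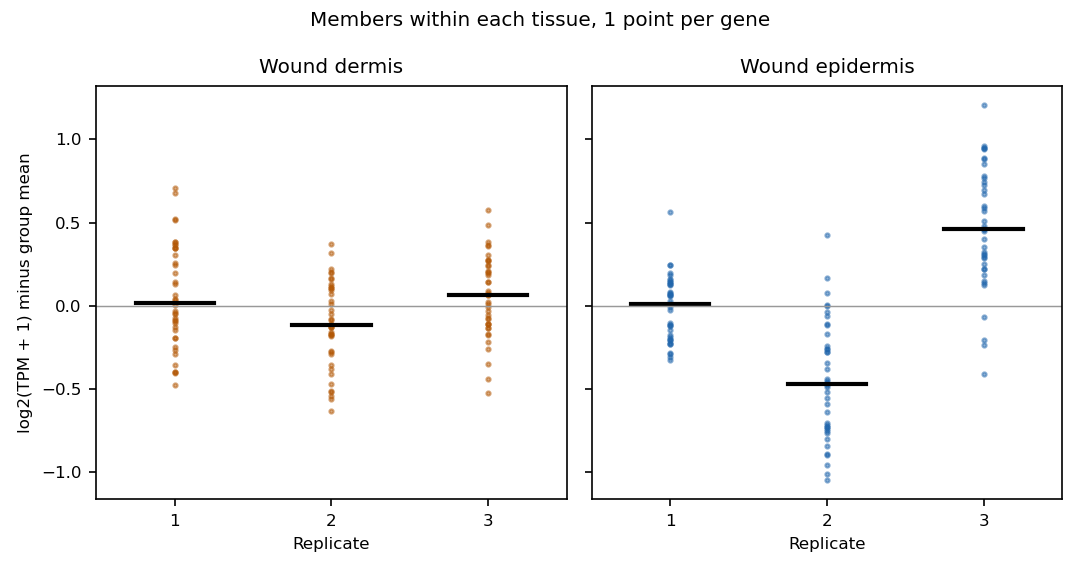
Each member's log2(TPM + 1) minus its mean in the tissue (y axis), by replicate (x axis), for wound dermis (left) and wound epidermis (right), with 1 point per gene and a black bar at the median. The epidermis medians are 0.01, -0.47 and 0.46 in replicates 1, 2 and 3, and the dermis medians 0.02, -0.12 and 0.06.

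Markers of dermal cells were lower in epidermis too. The median level in epidermis as a share of dermis was 9.34% over the 40 members. It was 1.74% over 10 macrophage and monocyte markers, 0.413% over 5 endothelial markers and 0.0827% over 6 fibroblast markers. Over 6 dendritic and Langerhans cell markers it was 35.6%, and over 5 T and NK cell markers 86.5%. Single macrophage and monocyte markers ranged from 0.283% to 29.5% and members from 0.933% to 116%, so they overlapped. All 40 members stood above each of the 6 fibroblast markers in this share, and 31 above each of the 5 endothelial markers. No marker of these lists was at 0 in all epidermis libraries. Summed over the list, macrophage and monocyte markers ranged from 1280 to 2363 TPM in dermis and from 69.5 to 82.8 TPM in epidermis, fibroblast markers from 37703 to 59384 and from 8.42 to 87.6 TPM, and endothelial markers from 216 to 344 and from 3.10 to 9.55 TPM. Of 6 dendritic and Langerhans cell markers 5 fell, among them Cd74 (log2 fold change -2.06) and H2-Ab1 (-1.84), both of antigen presentation. Cd207, the langerin of Langerhans cells, averaged 4.04 ± 2.88 TPM (SD, n = 3) in dermis against 9.65 ± 4.10 TPM in epidermis and did not pass (adjusted p = 0.073), but without dermis replicate 2 this list had 4 that fell and 1 that rose. Of 4 tested T and NK cell markers Trac fell (log2 fold change -2.40), and Cd3g, Nkg7 and Cd3e did not pass. The part of these cell types in the members' difference was not tested.

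**Figure D5:**
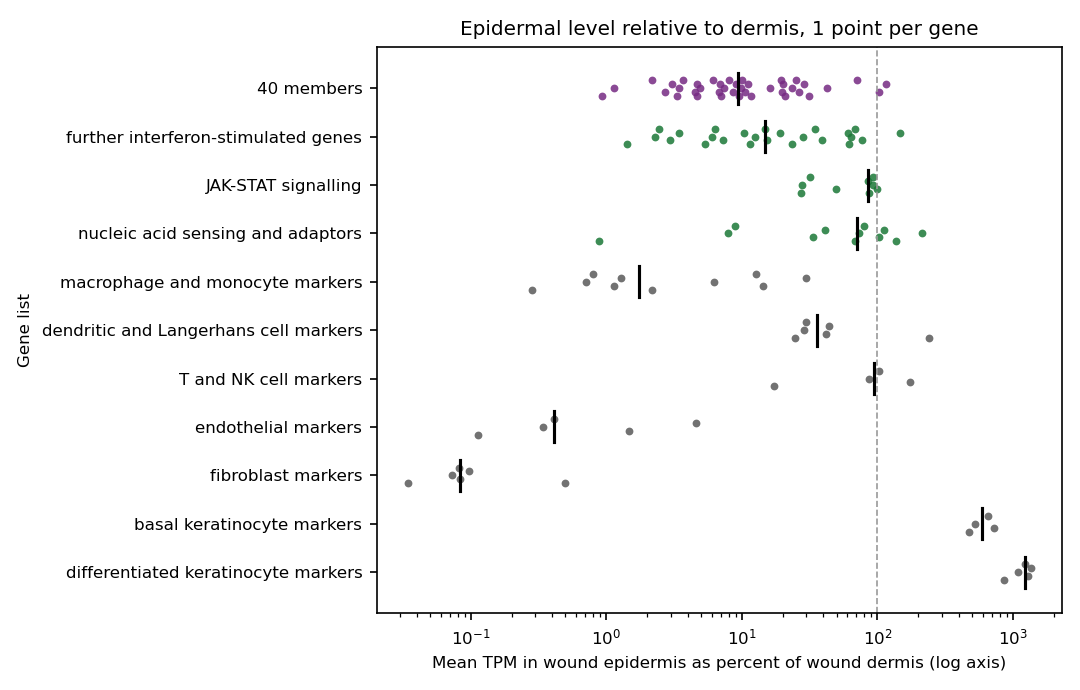
Mean TPM in wound epidermis as percent of the mean in wound dermis (log axis), 1 point per gene whose dermis mean was 1 TPM or more, and a bar at the median, for the 40 members (purple), 3 lists of other interferon pathway genes (green) and 7 lists of cell type markers (grey). The members centre on 9.34% and lie to the right of the fibroblast markers and to the left of the keratinocyte markers, and the dashed line marks equal levels.

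Of 60 other interferon pathway genes 48 were tested, and 29 fell and 2 rose, where 39.3% of all tested genes fell and 17.0% rose. Without dermis replicate 2, 26 of 45 fell and 1 rose, where 27.1% of all tested genes fell. Among 25 further interferon-stimulated genes 24 were tested, 19 fell and 0 rose, and without dermis replicate 2 it was 18 of 23. Ly6e, a membrane protein induced by interferon, stood at 516, 548 and 597 TPM in dermis and at 129, 118 and 143 TPM in epidermis (log2 fold change -2.09, adjusted p = 0.00014). Ifi27 had a log2 fold change of -1.28 (adjusted p = 0.0070). B2m, the light chain of MHC class I, was the most abundant, with 1560 ± 86.6 TPM in dermis against 968 ± 153 TPM in epidermis, but its log2 fold change of -0.70 (adjusted p = 0.031) missed the threshold with any 1 library left out other than epidermis replicate 3 (adjusted p = 0.060 to 0.11). It was -0.22 under median-of-ratios scaling (adjusted p = 0.34), -1.13 under quantile normalization (0.0018) and not called with no filter (0.0995).

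Of 10 JAK-STAT genes 4 fell, 1 rose and 5 did not pass, with or without dermis replicate 2. With all 6 libraries their share that fell is near the 39.3% of all tested genes. Without dermis replicate 2 the share of all tested genes that fell was 27.1%. Among the 4 that fell were Jak2 (log2 fold change -1.46, adjusted p = 0.0021) and Socs1 (-1.61, adjusted p = 0.0061). Socs1 was not called after quantile normalization (adjusted p = 0.051). Stat3 averaged 136 ± 23.8 TPM in dermis against 136 ± 54.5 TPM in epidermis and Jak1 68.6 ± 5.68 against 63.7 ± 17.4 TPM, and neither passed the test (adjusted p = 0.89 and 0.65). Of 12 tested sensing and adaptor genes 5 fell, 1 rose and 6 did not pass, again a share near 39.3%, and without dermis replicate 2 it was 3 of 10 that fell and 0 that rose. Those that fell were Tmem173, which encodes the adaptor STING (log2 fold change -3.03), the endosomal receptors Tlr7 (-2.97) and Tlr3 (-1.74), the adaptor Ticam1 (-1.11) and the RNA editing enzyme Adar (-1.08). Tlr7 reached at most 0.12 TPM and Tlr3 at most 0.34 TPM in epidermis, so both passed the filter only through dermis. With a pseudocount of 0.1 their log2 fold changes were -5.55 and -3.27. Ticam1 and Adar were not called after quantile normalization (adjusted p = 0.18 and 0.13). The adaptor Myd88 averaged 25.8 ± 2.61 TPM in dermis against 35.4 ± 7.70 TPM in epidermis and did not pass (adjusted p = 0.14), but it was called higher under median-of-ratios scaling (adjusted p = 0.0039), under quantile normalization (0.011) and without epidermis replicate 2 (0.046). Trex1, a DNA exonuclease, did not pass either (log2 fold change -0.50, adjusted p = 0.30), except without epidermis replicate 3 (-0.90, adjusted p = 0.046). Samhd1, which depletes nucleotides, stood at 49.0, 46.3 and 41.4 TPM in dermis and at 64.5, 71.7 and 155 TPM in epidermis (log2 fold change 0.96, adjusted p = 0.046). Its call was lost with each library left out except epidermis replicate 1 (adjusted p = 0.050 to 0.13). The interferon gamma receptor chain Ifngr1 fell by 2.37, from 195 ± 41.1 to 37.5 ± 12.4 TPM, and Ifngr2 was at -0.60 (adjusted p = 0.053, and 0.041 without epidermis replicate 3).

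Of all receptor genes listed, the type III interferon receptor chain Ifnlr1, which makes epithelial cells responsive to interferon lambda, was the one that rose. It stood at 0, 0.55 and 0.05 TPM in dermis and at 1.78, 1.99 and 2.34 TPM in epidermis. The groups did not overlap, but all values were low (log2 fold change 1.36 ± 0.22, adjusted p = 0.0019, and 3.31 with a pseudocount of 0.1). It reached 1 TPM in the epidermis libraries alone and so passed the filter only through the tissue in which it was high, and it had no test with an epidermis library left out. With no filter its adjusted p was 0.0064. Il10rb, the partner chain of Ifnlr1 in this receptor, was lower in epidermis. Il10rb stood at 64.51, 51.01 and 54.85 TPM in dermis and at 26.58, 31.95 and 25.42 TPM in epidermis (log2 fold change -0.9955, limma adjusted p = 0.0043). After median-of-ratios scaling Il10rb was not called (-0.53, adjusted p = 0.087). The interferons themselves were barely present. Of 9 type I and type III interferon genes 8 were listed at 0 in all 6 libraries, and the keratinocyte interferon Ifnk reached at most 0.18 TPM. Ifng reached at most 0.24 TPM. The number of reads behind a library is unknown, so no limit can be given for these zeros.

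Set beside the rat windows, the 16 members whose rat window held the response element all fell in mouse, with a median log2 fold change of -3.50 and a range of -6.02 to -1.07. Of the 10 without it 7 fell and 3 did not pass, with a median of -1.62 and a range of -3.07 to 0.19. Of all 40 members 37 fell, where 39.3% of all tested genes did. The windows without the element were mostly those of receptor chains and transcription factors, so motif and role cannot be told apart here. These are mouse values sorted by rat sequence and are given as a description.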

How the data were processed

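The deposited tables hold TPM, made by the authors. Per the submitters' processing notes the tools were RSEM 1.2.31 and Bowtie 1.0.0 and the mouse build mm10. Their settings and annotation are not stated in what was used here. Per the labels' protocols, 10 or 100 ng of RNA and reads of 86 or 43 bases were used, without saying in which library. TPM keep no read totals, so the depth of a library is unknown and counting intervals cannot be had.

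Of 49548 mouse identifiers 49289 were paired with symbols from GENCODE M21 (mm10), also used for coordinates. The filter kept genes that reached 1 TPM in 3 or more of the 6 libraries. On the scale log2(TPM + 1) these were tested by limma 3.58.1 under R 4.3.3 (mean-variance trend, Benjamini-Hochberg over 15982 genes, threshold 0.05), a test first checked on simulated data. Alternatives were a pseudocount of 0.1, no filter or one of 5 TPM, median-of-ratios scaling, quantile normalization, the replicate number as a block, and each library left out. The members and lists were chosen with earlier results of these data known. All 40 members are named. Values in every library are given for the 3 most abundant of each role group, for all members of groups of 3 or fewer, for those that did not pass and for the extremes. From other lists up to 3 of the most abundant genes and all that rose are named, except 1 gene that is not reported here. Ifit3b, Oas1g, Ifnk, Il10rb, Jak2, Socs1 and some further sensing and marker genes were added after their values were seen. So were the overlapping genes and the genes of the closing section.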

Additional observations from a re-analysis of the deposited data

How the results depend on the processing

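The count of 37 members that fell ranged from 32 (filter of 5 TPM, which left 35 members) to 37 over all alternatives, with 36 after median-of-ratios scaling, 33 after quantile normalization and 33 to 37 with 1 library left out. With a dermis library left out 3 members failed the filter. No member changed direction past the threshold. The count of members that rose was 0, and 2 after median-of-ratios scaling (Irf3 and Irf5). Over all genes 2721 rose and 6275 fell. Those that rose numbered 4342 under median-of-ratios scaling and 4694 under quantile normalization, 47.2% and 52.8% of all calls against 30.2%, and the cause was not tested. With 1 library left out, 3256 to 6406 genes fell. The share of tested genes that fell was 39.3%, 23.5% to 27.1% without a dermis library and 34.1% to 41.2% without an epidermis library, 30.3% and 26.2% under those scalings and 21.8% with no filter, and the cause was not tested. The genes tested also changed in number, to 30354 with no filter and to between 13823 and 13855 without a dermis library, against 15982. Other pathway genes that fell numbered 24 to 32, against 29. The labels give both tissues the replicate numbers 1 to 3. Across genes, the departures of libraries with the same number from their tissue means correlated at -0.14, 0.09 and 0.19, so the numbers were not taken as pairs. With the replicate block 37 members fell and 0 rose, and over all genes 5940 fell and 2464 rose. Of the other genes named, Samhd1 and B2m lost their calls under it (adjusted p = 0.067 and 0.070). TPM keeps no read counts, so the precision of values below 1 TPM cannot be judged.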

Other observations

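Members of the same gene families that are not in the list did not all follow it. These genes were chosen after their values were seen. Oas1f, a copy of the oligoadenylate synthetase gene Oas1a, was high in epidermis, at 113, 76.4 and 144 TPM, against 0, 35.4 and 2.40 TPM in dermis libraries 1, 2 and 3 (log2 fold change 4.45 ± 1.17, limma adjusted p = 0.015). The dermis library with 35.4 TPM is replicate 2, which also held keratinocyte transcripts. Without it the log2 fold change was 5.88 (adjusted p = 0.000238), and without dermis replicate 3 it was 4.17 (adjusted p = 0.053). Oas1e stood at 10.6, 4.47 and 18.1 TPM in epidermis against 0, 3.02 and 0.19 TPM in dermis libraries 1, 2 and 3 (log2 fold change 2.66 ± 0.64, adjusted p = 0.010), again with its highest dermis value in replicate 2. Oas1f was thus far more abundant in epidermis than Oas1a, at 111 ± 34.0 against 5.20 ± 2.60 TPM (SD, n = 3), while in dermis replicates 1 and 3 Oas1a was the higher. Reads of near-identical Oas1 copies may be split between them, so the share of each copy is uncertain.

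Ifitm10, a distant member of the Ifitm family, stood at 13.6, 7.86 and 8.78 TPM in epidermis against 0.42, 3.31 and 3.07 TPM in dermis libraries 1, 2 and 3 (log2 fold change 1.89 ± 0.46, adjusted p = 0.011). Ifitm1, Ifitm2 and Ifitm3 all fell, as did Ifitm6 outside the list (-1.19, adjusted p = 0.00059). Ifitm6 stood at 1.28, 1.14 and 1.44 TPM in dermis and at 0 in every epidermis library, so it passed the filter only through dermis. Its log2 fold change was -3.79 with a pseudocount of 0.1 and -0.61 after quantile normalization. Of the other Oas1 copies, Oas1g fell (-1.52), and Oas1b (-0.90, adjusted p = 0.070) and Oas1c (0.14, adjusted p = 0.72) did not pass. The Gbp relatives went the other way. Gbp4, Gbp6, Gbp7, Gbp8 and Gbp9 had log2 fold changes of -3.53, -2.36, -4.70, -3.23 and -4.43, and Ifi44l, a relative of Ifi44, one of -4.57. None of these genes reached 1 TPM in all 3 epidermis libraries, so their epidermis values alone would not have passed the filter. Gbp8 and Gbp9 reached at most 0.33 and 0.51 TPM there.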
